A study of Caenorhabditis elegans with 24 samples.

Results

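The microRNAs miR-124, lsy-6 and miR-234, which Caenorhabditis elegans makes in neurons, were followed through small RNA libraries of 6 alg-1 genotypes. All rows of the count table that belong to the precursors cel-mir-124, cel-lsy-6 and cel-mir-234 were taken, both arms of each hairpin, which gave 6 of 450 rows and 3 of 253 precursors. Whole animals were collected once the synchronised larvae had fed for 45 h at 20 °C. The genotypes were N2 wild type (WT), alg-1(ma447,F180del), alg-1(ma443, G199S), alg-1(zen25, V254I), alg-1(zen18,H751L) and the null alg-1(tm492, 0). The 4 point or deletion alleles model human AGO1 changes of a neurodevelopmental disorder (NDD). Each genotype had 2 libraries of total small RNA from the lysate and 2 of small RNA that came down with ALG-1 in an immunoprecipitation (IP), 24 libraries in all. The labels do not say whether libraries 1 and 2 of a group came from separate cultures, so every p-value measures only the spread between these libraries.

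ALG-1 is an Argonaute, the protein that holds a mature microRNA (miRNA) and brings it to its target mRNAs. It shares this work in C. elegans with its close relative ALG-2. A miRNA hairpin is cut to a duplex of a 5p and a 3p arm, of which one, the guide, is normally kept in the Argonaute and the other, the passenger, is lost. miR-124 is conserved from worms to mammals and is made in C. elegans largely in ciliated sensory neurons. lsy-6 acts in the taste neuron ASEL, where it represses the transcription factor gene cog-1 and so sets the difference between the left and right ASE neurons. miR-234 is also expressed in sensory neurons, and its role is less well known. In libraries from whole animals, fewer cells of a type and less RNA per cell cannot be told apart.

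In the Ensembl annotation of WBcel235, a build that the sources used here do not name as that of the counts, the hairpins lie on 3 chromosomes. The mir-124 hairpin is at chromosome IV, positions 11871738 to 11871833 on the plus strand, in an intron of trpa-1, which encodes a TRPA channel and runs on the same strand. The lsy-6 hairpin is at chromosome V, 10647232 to 10647304 on the plus strand, and the mir-234 hairpin is at chromosome II, 14466263 to 14466358 on the minus strand, both outside protein-coding genes. Annotated noncoding RNAs lie opposite mir-124 (C29E6.8) and mir-234 (C13B4.6), and how reads of opposite strands were assigned is not given in the sources used here. The mature arms are 21 to 23 bases long.

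Libraries held between 3940626 and 13835895 miRNA reads, and levels are given as reads per 1000000 miRNA reads (RPM). A count of 0 then allows up to 3 reads, or 0.217 to 0.761 RPM per library, which covers counting error only. miRNA reads hold no measure of the alg-1 transcript, so the genotypes could not be checked against their labels, and every level is relative to the other miRNAs of its library. The second total libraries of V254I, H751L and null stood apart from the first in the same way: across miRNAs, their deviations from the group means correlated at 0.484 to 0.608 between these genotypes. In the IP of null, which shows what the precipitation brings down without ALG-1, 153 and 232 miRNAs had reads, against 269 to 327 in the other IP libraries.

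The 3p arm was the major arm of all 3 hairpins. miR-234-3p was the most abundant, with 373762 reads over the 12 total libraries and 187252 over the 12 IP libraries, and a median of 3243 and 1445 RPM. miR-124-3p had 23068 and 7818 reads, with medians of 103 and 64.4 RPM. lsy-6-3p had 6556 and 2573 reads, with medians of 64.4 and 18.9 RPM. Of the 5p arms, miR-124-5p had 688 and 1196 reads, miR-234-5p had 7 and 80, and lsy-6-5p had 4 and 6. After the filter on low counts, 4 of 6 arms were tested in total RNA and 5 of 6 in the IP. miR-234-5p passed the filter in the IP only through F180del and G199S, where it was high, so its reads are described with no test and it is left out of the counts of calls below.

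**Figure D1:**
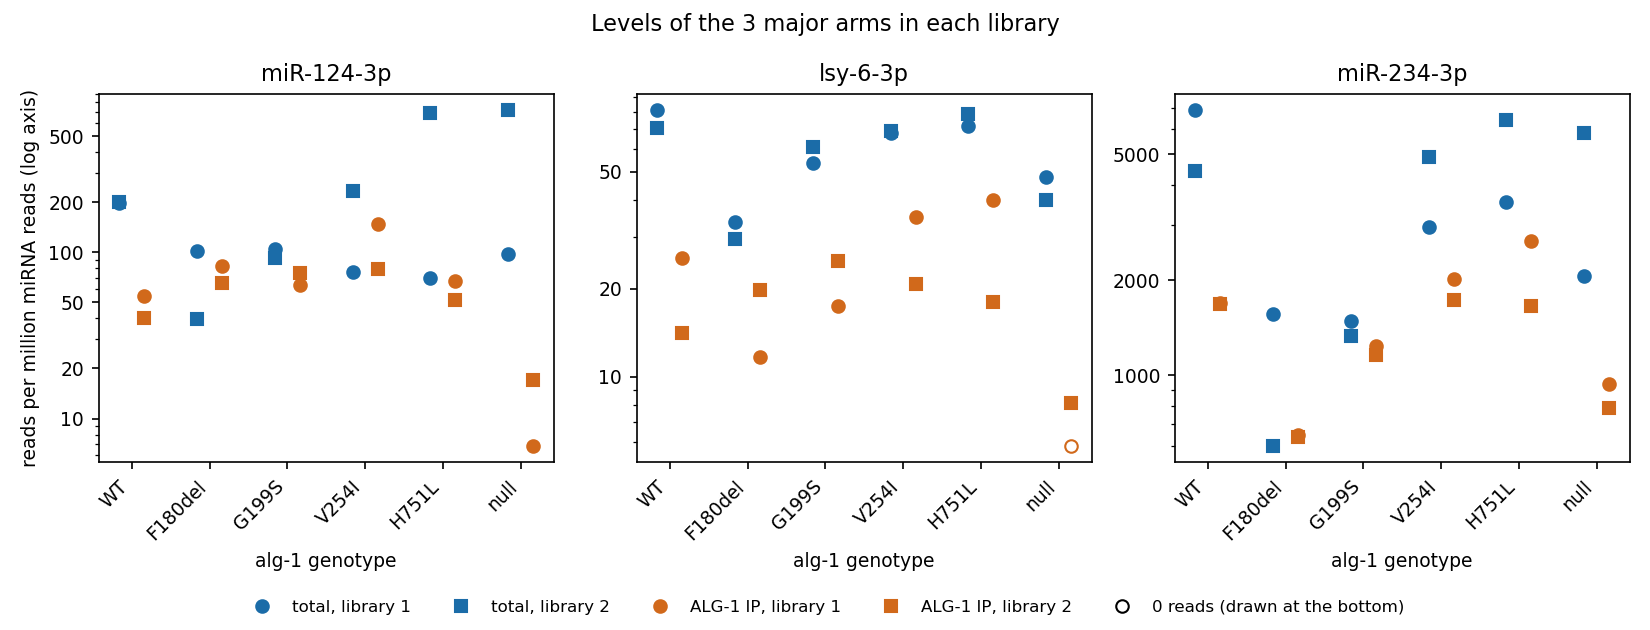
Level of miR-124-3p, lsy-6-3p and miR-234-3p in each library, in RPM on a log axis, by alg-1 genotype (blue total, orange ALG-1 IP; circle library 1, square library 2; open symbol 0 reads, drawn at the bottom). miR-234-3p is low in both fractions of F180del, and miR-124-3p splits between the total libraries of V254I, H751L and null.

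miR-234-3p fell in total RNA of F180del. It was at 6891 and 4430 RPM in the WT libraries and at 1568 and 600 RPM in F180del, so both F180del libraries lay below both WT libraries. In G199S it was at 1486 and 1335 RPM, also below both WT libraries and close together. The 2 alleles thus sat at the bottom of the order of genotypes, and their values overlapped.

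In the other genotypes the total libraries of miR-234-3p overlapped those of WT. V254I was at 2951 and 4899 RPM, H751L at 3536 and 6421 RPM, and null at 2057 and 5832 RPM. In each of these 3 genotypes the second library was the higher one. The mean over the 2 libraries was 5660 ± 1740 RPM in WT and 4978 ± 2040 RPM in H751L (SD, n = 2), the first and second places in the order.

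On the log2 scale the fall of miR-234-3p in F180del total RNA was -2.78, with an SE of 0.71 (2 libraries a group; edgeR adjusted p = 0.0211), and errors of log2 values are SE from here on. It was 1 of 4 arms called there, where 15.5% of all 303 miRNAs tested were called, 4.29% of them as lower. In G199S the difference was -2.19 ± 0.70, which did not pass the threshold of 0.05 (edgeR adjusted p = 0.0527), so 0 of 4 arms were called against 11.9% of all miRNAs; it passed in 7 of 12 alternatives. Without the second total libraries of V254I, H751L and null in the fit, G199S passed at -2.46 (edgeR adjusted p = 0.0115) and F180del was at -2.68 (0.00847). The F180del call rested on single libraries: it was lost without WT library 1 (edgeR adjusted p = 0.118), without WT library 2 (0.0577) and without F180del library 2, where the difference was -1.80 (0.203).

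lsy-6-3p was also low in F180del total RNA, at 33.7 and 29.6 RPM against 81.2 and 70.7 RPM in WT. G199S was at 53.5 and 60.9 RPM and null at 48.0 and 40.1 RPM, and all of these libraries lay below both WT libraries. V254I (68.0 and 68.7 RPM) lay just below WT, and H751L (71.7 and 78.5 RPM) overlapped it. The order of means ran from WT at 75.9 ± 7.39 RPM through H751L, V254I, G199S and null to F180del at 31.6 ± 2.91 RPM (SD, n = 2). Only WT and H751L overlapped among neighbours in that order.

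Despite this spacing no lsy-6-3p difference in total RNA passed. That of F180del against WT was -1.75 ± 0.58 on the log2 scale (edgeR adjusted p = 0.0507). It passed in only 3 of 12 alternatives: DESeq2 (adjusted p = 0.00533), RLE factors (edgeR adjusted p = 0.0459) and the replicate block (0.0364). With library totals in place of TMM factors it was -1.26 (edgeR adjusted p = 0.104). Of all miRNAs tested, 17.5% had both F180del total libraries below both WT libraries, and in G199S the share was 22.4%. The shares for V254I and null are not given here, so nothing is read from the place of their lsy-6-3p values below WT. lsy-6-3p did not show the split between libraries 1 and 2 of V254I, H751L and null that miR-124-3p did.

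miR-124-3p was at 198.9 and 200.6 RPM in WT total RNA. F180del was at 102 and 39.9 RPM and G199S at 104 and 93.0 RPM, both below WT in both libraries. V254I was at 75.6 and 233 RPM, H751L at 70.2 and 688 RPM, and null at 97.6 and 715 RPM. The first library of each of these 3 genotypes thus lay below WT and the second above it. Its spread within null, 406 ± 437 RPM (SD, n = 2), was larger than the difference of its mean from that of any other genotype.

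No miR-124-3p difference from WT in total RNA passed the test. The lowest adjusted p was 0.212, for F180del (edgeR). In total RNA of V254I no arm was called, against 0.0% of all miRNAs, and in H751L and null none was called either, against 1.98% and 11.9%. Set against null instead of WT, 0 of 4 arms were called in any of the 4 alleles, where 3.3% (F180del), 8.58% (G199S), 11.6% (V254I) and 3.3% (H751L) of all miRNAs were. The F180del differences from null were -2.14 for miR-234-3p (edgeR adjusted p = 0.0764) and -2.80 for miR-124-3p (0.116), and the G199S difference was -1.55 for miR-234-3p (0.139). Null total library 2 carried most of these: without it they were -0.84, -0.38 and -0.62 (edgeR adjusted p = 0.514, 0.859 and 0.640).

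**Figure D2:**
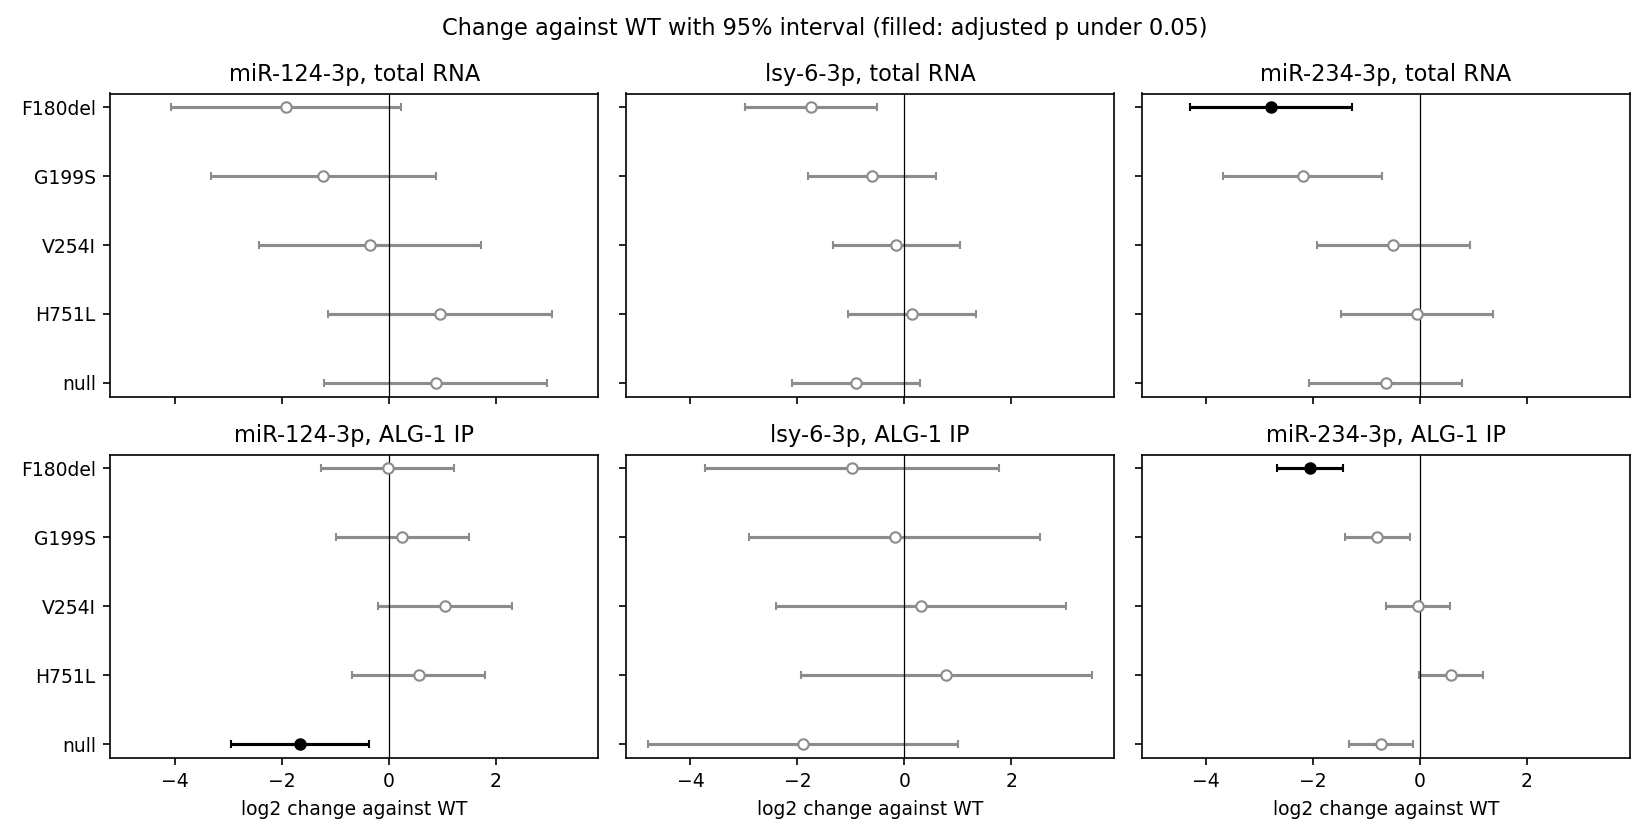
Log2 change of each genotype against WT for the 3 major arms, in total RNA (top) and ALG-1 IP (bottom), with the 95% interval from edgeR (n = 2 libraries per group). Filled symbols passed at an adjusted p under 0.05: miR-234-3p in both fractions of F180del and miR-124-3p in the null IP.

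In the ALG-1 IP the miR-234-3p values were close together within most genotypes. WT was at 1697 and 1679 RPM, F180del at 649 and 639 RPM, G199S at 1238 and 1160 RPM, and null at 937 and 791 RPM. V254I was at 2023 and 1731 RPM and H751L at 2661 and 1652 RPM. F180del thus had the lowest mean of the 6 genotypes, below that of the null IP. RPM is a share of the miRNA reads of a library, so this does not compare the amounts of miR-234-3p brought down.

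In the F180del IP miR-234-3p fell against WT by 2.06 ± 0.28 in log2 terms (edgeR adjusted p = 0.000281). The call held in 11 of 11 alternatives, and with library totals in place of TMM factors the change was -1.39 (edgeR adjusted p = 0.00577). TMM, which aligns the bulk of miRNAs, here lowered all changes by 0.66 relative to library totals. In the G199S IP the difference was -0.80 ± 0.27 and in the null IP -0.72 ± 0.27, neither past the threshold (edgeR adjusted p = 0.0535 and 0.0526). Of the 4 other arms tested, 1 was called in F180del, miR-234-3p as lower, where 32.3% of all 269 miRNAs were called (8.55% lower). In G199S none was, against 25.3% of all miRNAs. In null 1 arm was called, miR-124-3p as lower, against 41.3% (24.2% lower). In V254I and H751L none was, against 0.0% and 2.23%.

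miR-124-3p in the IP was at 54.9 and 40.4 RPM in WT, 82.7 and 65.2 RPM in F180del, 63.6 and 74.8 RPM in G199S, 148 and 79.2 RPM in V254I, and 66.9 and 51.7 RPM in H751L. The null IP held 6.88 and 17.1 RPM, below every other IP library. Between the 5 genotypes with ALG-1, neighbours in the order overlapped. The F180del libraries were above WT in RPM, while the TMM estimate of the difference was close to 0, so no direction is given. In null miR-124-3p fell by 1.65 ± 0.59 against WT (edgeR adjusted p = 0.0440). Without null library 1 this was -0.53 (edgeR adjusted p = 0.438), and the call held in 4 of 11 alternatives.

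lsy-6-3p in the IP varied more between the libraries of a genotype. WT was at 25.5 and 14.1 RPM, F180del at 11.7 and 19.7 RPM, G199S at 17.4 and 24.8 RPM, V254I at 35.2 and 20.8 RPM, and H751L at 40.2 and 18.0 RPM. The null IP had 0 reads in library 1 and 38 reads, or 8.14 RPM, in library 2. Null was below every other library, and the genotypes with ALG-1 overlapped. No lsy-6-3p difference from WT passed in the IP. Both libraries of the null IP lay below both of WT for 50.6% of all miRNAs tested.

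Each IP was then set against the null IP, the background of the precipitation. miR-124-3p was higher than in the null IP in WT and in all 4 alleles. The log2 differences were 1.65 ± 0.59 in WT, 1.63 ± 0.59 in F180del (edgeR adjusted p = 0.0392), 1.90 ± 0.59 in G199S (0.0243), 2.70 ± 0.61 in V254I (0.00497) and 2.21 ± 0.60 in H751L (0.0154). Without null library 1 they were smaller and only that of V254I passed, at 1.64 (edgeR adjusted p = 0.0230). F180del was at 0.76 without it and G199S at 0.83. Fitted on each pair of groups alone, none of the 5 passed, and over 11 alternatives the call held in 6 for F180del, 7 for G199S, 9 for V254I and 8 for H751L.

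miR-234-3p passed against the null IP in 2 genotypes and in opposite directions. It was lower in F180del, by -1.34 ± 0.28 (edgeR adjusted p = 0.00241), and higher in H751L, by 1.29 ± 0.27 (0.00519). The F180del difference was -0.42 with library totals (edgeR adjusted p = 0.253), and the H751L difference was 0.85 without null library 1 (0.111). WT (0.72 ± 0.27) and V254I (0.68 ± 0.27) did not pass (edgeR adjusted p = 0.0526 and 0.0612), and G199S was within its error of null (edgeR adjusted p = 0.843). No lsy-6-3p difference from the null IP passed, the lowest adjusted p being 0.136, for H751L. Calls against the null IP were frequent over all 269 miRNAs. Their share was 41.3% in WT (24.2% higher), 50.6% in F180del (37.2% higher and 13.4% lower), 44.2% in G199S (34.2% higher), 46.8% in V254I (28.3% higher) and 39.8% in H751L (23.8% higher). The comparisons share the 2 null libraries, so they are not independent of each other, and 7 of 20 tests of member arms were called, beside 44.5% of the tests of all miRNAs.

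**Figure D3:**
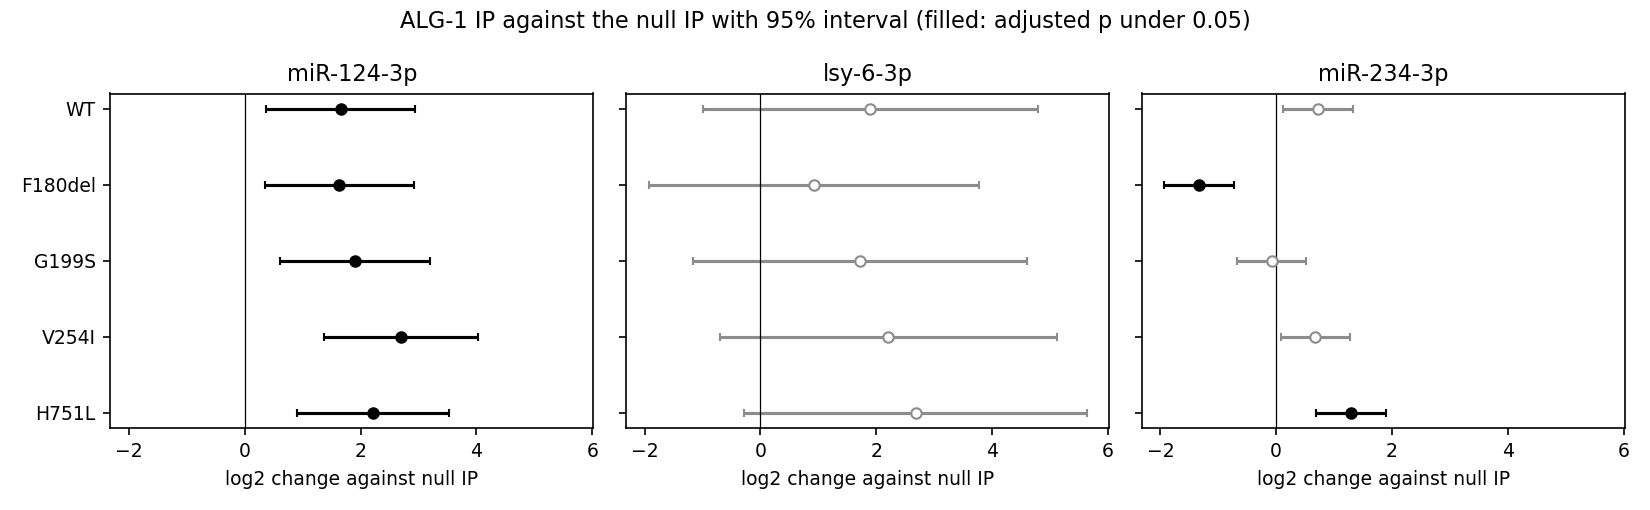
Log2 change in the ALG-1 IP of WT and each allele against the null IP, which lacks ALG-1, for the 3 major arms with the 95% interval from edgeR (n = 2 libraries per group; filled symbols passed at an adjusted p under 0.05). miR-124-3p passed in all 5 genotypes, miR-234-3p in F180del (lower) and H751L (higher), and lsy-6-3p in none.

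The 4 NDD alleles differed among themselves in miR-234-3p. In an F-test over the alleles, miR-234-3p passed in total RNA (edgeR adjusted p = 0.0275) and in the IP (0.000178). Background shares were 17.2% of miRNAs in total RNA and 37.2% in the IP. miR-124-3p, miR-124-5p and lsy-6-3p did not pass in either fraction, the lowest adjusted p being 0.106, for miR-124-5p in the IP. The F-test does not name the alleles that differ. By mean level, F180del and G199S were the 2 lowest of the 4 for miR-234-3p in both fractions.

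Relative to its total RNA, miR-124-3p was lower in the IP of null by -4.01 ± 1.00 on the log2 scale (edgeR adjusted p = 0.00436), where 35.6% of all 315 miRNAs tested were called, 22.5% as lower. Much of that size came with null total library 2, the one at 715 RPM: without it the difference was -1.84 (edgeR adjusted p = 0.156), and without the second total libraries of V254I, H751L and null together it was also -1.84 (0.0749). In the other genotypes none of the 3 major arms passed. miR-234-3p was at -1.14 ± 0.52 in WT (edgeR adjusted p = 0.109) and -1.24 ± 0.52 in null (0.0662), and lsy-6-3p at -2.22 ± 1.06 in null (0.1002). The null values also moved with single libraries: without null total library 2 that of miR-234-3p was -0.20 (edgeR adjusted p = 0.921), and without null total library 1 it passed at -1.82 (0.0124). That of lsy-6-3p was -1.37 without null IP library 1 (0.176), the library with 0 reads, and passed in 5 of 12 alternatives. The shares of all miRNAs called were 21.9% in WT, 8.89% for F180del, 7.94% for G199S, 13.7% in V254I and 30.8% in H751L. The IP to total ratio of an allele or null was also tested against that of WT. None of the 20 such tests of member arms passed in edgeR, 0 had an unadjusted p under 0.05, and the lowest adjusted p was 0.321, against 0.889% of all miRNA tests called. By genotype that share was 2.22% in F180del, 0.952% in G199S, 0.0% in V254I and H751L, and 1.27% in null.

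Of the passenger arms, miR-234-5p was nearly absent from most libraries but was read in all 4 IP libraries of F180del and G199S. F180del had 17 and 20 reads and G199S 24 and 17 reads. WT had 1 and 0 reads, V254I 0 and 1, and H751L and null 0 in both. In total RNA only G199S (2 and 3 reads) and V254I (0 and 2 reads) had any.

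Pooled over the libraries of a group and per miRNA read, miR-234-5p in the F180del IP was at 70.9 times the WT level, with an exact 95% interval of 11.97 to 2877. In G199S the ratio was 54.0 (9.17 to 2185). Both intervals are wide because WT had 1 read, and they cover counting error only. The null IP was at 0 reads. With 3 reads over the group set in its place, F180del was 14.2-fold and G199S 10.8-fold higher. The lower ends of the exact 95% intervals against the null IP were 10.97-fold and 8.40-fold. For the F180del IP against its own total RNA, also at 0 reads, the lower end of the exact 95% interval was 13.1-fold. In G199S the ratio of IP to total was 8.01 (3.17 to 26.0), again with counting error only.

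As a share of its hairpin's reads miR-234-5p stayed small. In F180del IP it made up 0.660% and 0.358% of mir-234 reads, and in G199S IP 0.169% and 0.210%. With fewer than 10 such reads per library on average, the hairpin was outside the test of arm ratios.

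miR-124-5p was a far larger part of its hairpin. In the IP it was at 5.57 and 5.96 RPM in WT, 19.0 and 12.4 RPM in F180del, 34.5 and 26.5 RPM in G199S, 10.7 and 9.07 RPM in V254I, 0.867 and 1.45 RPM in H751L, and 0 and 4.07 RPM in null. By mean, G199S and F180del were the highest and H751L the lowest. None of these differences from WT passed (lowest edgeR adjusted p = 0.236, for G199S). Against the null IP the G199S difference was 3.30 ± 1.28 (edgeR adjusted p = 0.0546). It rested on the null libraries, of which library 1 had 0 reads: without that library it was 1.71 and passed (edgeR adjusted p = 0.0399), and over 11 alternatives it passed in 6, the replicate block included (0.0451).

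Per hairpin, the 5p arm made up 35.1% and 26.2% of mir-124 reads in the G199S IP and 18.7% and 16.0% in the F180del IP. In the WT IP it made up 9.22% and 12.9%. The exact 95% intervals were 32.3% to 38.0% and 23.0% to 29.6% in the G199S libraries and 7.20% to 11.6% and 10.2% to 15.9% in WT. They cover counting error only, and the G199S libraries differed from each other by more than it. V254I (6.74% and 10.3%) overlapped WT, and H751L (1.28% and 2.72%) lay below it. The null IP held 0 of 68 reads in library 1 and 19 of 99 in library 2, so its share is poorly known.

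In total RNA the 5p share of mir-124 was highest in G199S too, at 16.9% and 14.3%. WT held 0 of 980 reads in library 1 and 2.67% in library 2. F180del was at 2.41% and 8.80%, V254I at 11.6% and 1.11%, H751L at 5.09% and 0.185%, and null at 3.21% and 0.343%. The low second values of V254I, H751L and null came from the libraries in which miR-124-3p was high. miR-124-5p itself was also lower in these libraries than in the first ones. First and second values were 9.88 and 2.60 RPM in V254I, 3.76 and 1.28 RPM in H751L, and 3.23 and 2.47 RPM in null. In limma, which uses the spread between libraries, no mir-124 arm ratio passed in any of 10 comparisons, G199S IP included (adjusted p = 0.343). The largest difference was 5.62 ± 2.25 in G199S total RNA (limma adjusted p = 0.115), where 18.2% of all hairpins tested were called. In the other total RNA comparisons 19.2% (F180del), 0.0% (V254I), 4.04% (H751L) and 14.1% (null) of hairpins were called. In the IP the shares were 49.4%, 36.1%, 0.0%, 1.2% and 20.5% in the order F180del, G199S, V254I, H751L and null.

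**Figure D4:**
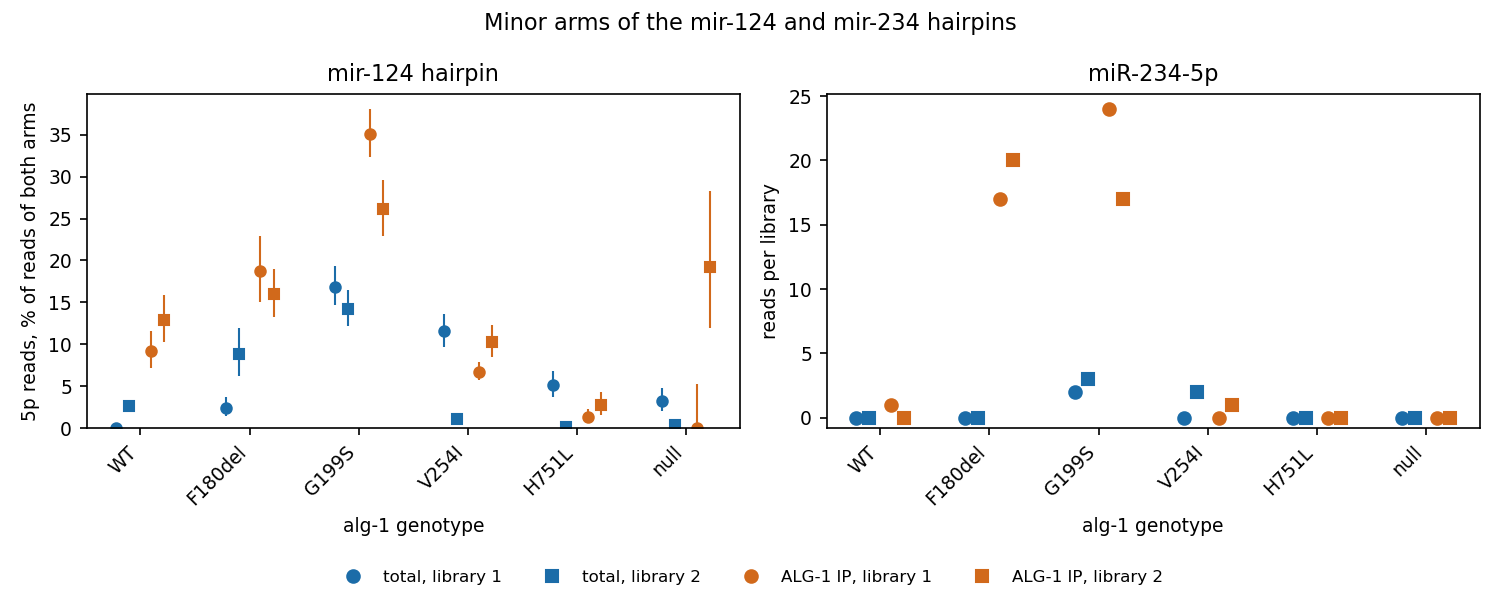
Minor arms by alg-1 genotype in each library (blue total, orange ALG-1 IP; circle library 1, square library 2). Left, miR-124-5p as a percent of the reads of both arms of its hairpin, with exact 95% intervals of counting error; right, reads of miR-234-5p, which reach 17 to 24 in the IP libraries of F180del and G199S and at most 3 elsewhere.

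Other miRNAs were set beside the 3 for comparison. Of 5 further miRNAs linked to the nervous system (miR-71-5p, miR-790-5p, miR-791-3p, the glial miR-228-5p, and miR-79-3p, which acts from the epidermis on neuronal migration), 1 rose and none fell in F180del total RNA, where 15.5% of all miRNAs were called. That one was miR-79-3p, at 2015 and 1716 RPM in WT and 14338 and 6238 RPM in F180del (2.04 ± 0.63, edgeR adjusted p = 0.0416), opposite to miR-234-3p. The median log2 difference of the 5 was -0.67, beside 0.13 for all miRNAs tested. In G199S total RNA, where 11.9% of all miRNAs were called, none passed and their median was -0.25, beside 0.34. miR-790-5p was at 2529 and 1175 RPM in WT, 834 and 326 RPM in F180del, and 699 and 632 RPM in G199S. Both alleles lay below WT and neither passed.

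In the F180del IP, where 32.3% of all miRNAs were called, miR-79-3p rose (3.25 ± 0.54) and miR-228-5p fell (-1.73 ± 0.34, edgeR adjusted p = 0.00330), with a median of -0.79 for the 5 and 0.29 for all miRNAs. miR-228-5p was at 135926 and 132381 RPM in the WT IP and 67627 and 61282 RPM in F180del. In the null IP, where 41.3% of all miRNAs were called, miR-71-5p rose (1.82 ± 0.26), while the median of all miRNAs was -0.77. None of the 5 passed in the IP of G199S, V254I or H751L, where 25.3%, 0.0% and 2.23% of all miRNAs were called.

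Markers of other tissues and of developmental time were also read in the genotypes where miR-234-3p was low. In G199S total RNA, of 7 such miRNAs 1 rose and 1 fell, where 11.9% of all miRNAs were called. miR-35-3p, made in embryos and germline, was at 2279 and 1372 RPM in WT and 50959 and 39566 RPM in G199S, and lin-4-5p, a timer of larval stages, was at 9844 and 4255 RPM in WT and 1907 and 1476 RPM in G199S (-2.24 ± 0.61, edgeR adjusted p = 0.0260). In F180del total RNA none of the 7 passed, where 15.5% of all miRNAs were called. In the F180del IP the muscle miRNA miR-1-3p (-1.30 ± 0.40) and miR-244-5p of the seam cells (-2.64 ± 0.52) fell. There 32.3% of all miRNAs were called and 8.55% as lower. In the G199S IP miR-35-3p rose (3.90 ± 0.26) and let-7-5p fell (-1.17 ± 0.21), where 25.3% of all miRNAs were called. In the null IP 1 of 7 rose and 4 fell, where 41.3% of all miRNAs were called and 24.2% as lower.

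The summed level of these 7 in total RNA was 265999 and 297311 RPM in WT, 207628 and 159063 RPM in F180del, and 169305 and 199976 RPM in G199S. Most of that sum was miR-1-3p, at 243311 and 278369 RPM in WT, 179104 and 124525 RPM in F180del, and 96624 and 141247 RPM in G199S. The sum therefore says little of the other miRNAs in it. None of the 7 was at 0 in any library. The 5 nervous system miRNAs summed to 86655 and 100996 RPM in WT, 105100 and 136132 RPM in F180del, and 159228 and 154312 RPM in G199S, and none was at 0 either. Most of this sum was miR-71-5p (50600 and 46675 RPM in WT) and miR-228-5p (31501 and 51414 RPM in WT). The part of tissue make-up or stage in the miR-234-3p values was not tested.

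Across the 12 total libraries, the levels most like miR-234-3p by Pearson r of log2(TMM-scaled counts per 1000000 + 1) were those of miR-45-3p and miR-44-3p (both 0.98) and miR-790-5p (0.97). For miR-124-3p they were miR-4813-3p (0.92), miR-229-3p (0.91) and miR-4926 (0.90), and for lsy-6-3p they were miR-42-3p (0.91), miR-4808-3p (0.90) and miR-76-3p (0.89). miR-44-3p and miR-45-3p are close relatives that can share reads. Among the 3 neuronal miRNAs themselves r was 0.822 for miR-124-3p with miR-234-3p, 0.800 for lsy-6-3p with miR-234-3p and 0.469 for miR-124-3p with lsy-6-3p.

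Across the 12 IP libraries the order changed. miR-124-3p and lsy-6-3p had r of 0.899, each among the 3 nearest of the other, while miR-234-3p had 0.310 with miR-124-3p and 0.460 with lsy-6-3p. The nearest to miR-234-3p were miR-55-3p (0.93), miR-797-5p (0.92) and miR-244-5p (0.90). The other near neighbours were miR-76-3p and miR-63-3p for miR-124-3p and miR-231-3p and miR-232-3p for lsy-6-3p, all at 0.89 to 0.91. The libraries share genotypes and differ in depth, and the low null IP libraries weigh on the values for miR-124-3p and lsy-6-3p, so these r describe the libraries and carry no test.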

How the data were processed

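The authors deposited a table of raw read counts per mature miRNA and precursor, which is the unit used here. Bowtie 1.2.2, cutadapt, FastQC 0.11.8 and DESeq2 were used, per the submitters' processing notes, which give no roles here. The sources used here do not give the build, the miRNA annotation or the handling of multi-mapping reads. A further 96 per-sample columns were not used. Of 437 names, 10 have several rows, and the row with most reads was kept. RPM is reads per 1000000 miRNA reads of all rows.

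Tests were edgeR 4.0.16 quasi-likelihood F-tests (R 4.3.3; filterByExpr, TMM; 303 miRNAs in total, 269 in IP, 315 in both together), Benjamini-Hochberg over all miRNAs tested, threshold 0.05, with the spread shared over all groups of the fit. SE is the log2 change divided by the root of F. Log2 changes of the arms other than miR-234-5p are printed where the unadjusted p was under 0.05. The arm ratio was tested with limma 3.58.1 on log2((minor + 0.5)/(major + 0.5)), for hairpins with a mean of at least 10 minor arm reads. With 2 against 2 libraries an exact permutation p cannot go below 0.333. The fits were tested on simulated data. Alternatives were DESeq2 1.42.0 (also its size factors, RLE), library totals, no filter, all rows, compared groups only, a replicate block and leaving out each library. Leaving out the second V254I, H751L and null total libraries together was added after seeing the data. The members and lists were chosen with earlier results of these data known. Named are all member rows, listed miRNAs that passed, and the 3 most alike.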

Additional observations from a re-analysis of the deposited data

How the results depend on the processing

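Of the fold changes given for the 3 miRNAs, none changed sign under any alternative run. Calls did change (the counts here include miR-234-5p, which is described with no test above). Without that arm the main fits called 2 of 20 member tests in the IP against WT and 7 of 20 against the null IP. The shares of all miRNA tests called were 20.2% and 44.5%. Among the 4 alleles 2 of 8 were called without it, beside 26.6%, and for IP against total 1 of 24, beside 19.8%. In total RNA against WT, 1 member call became 3 with RLE factors, DESeq2, only the compared groups or the 3 second libraries left out, 2 with no filter or all precursor rows, and 0 to 3 on leaving out 1 library. Against null in total RNA 0 became 3 with no filter and 2 with DESeq2. Among the 4 alleles 3 became 5 with no filter, 6 with DESeq2 and 2 to 5 without 1 library. In the IP 4 calls against WT became 1 to 8 and 9 against null became 3 to 19 without 1 library, the highest in both without null library 2, and the latter became 1 with only the compared groups. For IP against total 2 became 6 with RLE factors or library totals, 5 with DESeq2, 4 with only the compared groups, 1 with the 3 second libraries left out and 1 to 4 without 1 library. The 0 calls of the IP to total ratio became 0 to 3 without 1 library. The 0 mir-124 and mir-234 arm ratio calls became 3 with no minimum, all of them ratios of mir-234 that rest on the pseudocount, 3 with only the compared groups and 0 to 3 without 1 library. The cause was not tested. The library numbers were not taken to pair the samples, since not every pair of same-numbered deviations correlated over 0.1: 2 of 6 did between total and IP of a genotype (-0.0967 to 0.301), 8 of 15 between genotypes in total RNA (-0.337 to 0.608) and 10 of 15 in the IP (-0.11 to 0.385). With the replicate block the total RNA calls became 3, lsy-6-3p in F180del and miR-234-3p in G199S (edgeR adjusted p = 0.0470) added, and the IP against total calls 1. The few reads of lsy-6-5p and miR-234-5p limit what can be said of either.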
